A study of Mus musculus with 8 samples.

Results

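A group of 10 genes of the canonical Wnt pathway was followed across 3 groups of mouse embryonic stem cells: Axin2, Apc, Gsk3b, Nkd1, Ctnnb1, Lef1, Tcf7, Tcf7l1, Tcf7l2 and Sp5. They were chosen by symbol as effectors and targets of the pathway, and all 10 were found among the 55292 rows of the count table and among the 17342 genes that passed the filter on low counts. The libraries came from poly(A) RNA of E14 cells, a 129/Ola line, grown on gelatin with serum and leukaemia inhibitory factor. The groups were lncSmad7-/- cells labelled as Smad7 transfected, with 24 h named in their descriptions, untransfected lncSmad7-/- cells, and wild type E14 cells. None of them is labelled as a mock transfection, so transfection itself cannot be told apart from Smad7. Each group had 2 libraries. Both knockout groups lack lncSmad7, a long noncoding RNA, by their labels, and the sources used here do not give the number of clones behind them. The series calls the replicates biological and says no more. The p-values below therefore describe the spread between libraries, part of which may be technical.

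In the canonical pathway, secreted Wnt ligands bind Frizzled receptors and Lrp co-receptors at the cell surface. Without ligand, a cytoplasmic complex of Axin, Apc and Gsk3 marks beta-catenin for degradation; with ligand, beta-catenin accumulates, enters the nucleus and binds TCF/LEF proteins at target genes. Axin2, Nkd1, Sp5, Lef1 and Tcf7 are known targets of this signal, and Axin2 and Nkd1 act back on it as inhibitors. In mouse embryonic stem cells Wnt signalling is known to sustain self-renewal, largely by relieving the repression that Tcf7l1 exerts on pluripotency genes.

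TCF/LEF proteins recognise DNA with the core CTTTG followed by A or T bases. Promoter windows of 3 target genes are therefore shown, each from 250 bases before to 50 bases after an annotated start, with any word of that form on either strand in capitals. The 4 words searched are spelled out with their frequencies beneath the sequences. The sequences are those of RefSeq on GRCm38.p6. The Sp5 window at chr2:70474673-70474972, plus strand, holds CTTTGTT on the minus strand and CTTTGAT on the plus strand. The Lef1 window at chr3:131156044-131156343, plus strand, belongs to an internal start of that gene and holds CTTTGTA on the minus strand. The Axin2 window at chr11:108920099-108920398, plus strand, holds none of the 4 words and is shown because Axin2 moved in every comparison below.
Sp5: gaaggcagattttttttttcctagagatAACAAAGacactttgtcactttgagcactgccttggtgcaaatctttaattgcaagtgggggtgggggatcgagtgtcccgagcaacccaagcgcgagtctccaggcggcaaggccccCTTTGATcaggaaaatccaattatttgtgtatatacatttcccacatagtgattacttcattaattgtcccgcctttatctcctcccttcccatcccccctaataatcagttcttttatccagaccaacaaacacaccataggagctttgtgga
Lef1: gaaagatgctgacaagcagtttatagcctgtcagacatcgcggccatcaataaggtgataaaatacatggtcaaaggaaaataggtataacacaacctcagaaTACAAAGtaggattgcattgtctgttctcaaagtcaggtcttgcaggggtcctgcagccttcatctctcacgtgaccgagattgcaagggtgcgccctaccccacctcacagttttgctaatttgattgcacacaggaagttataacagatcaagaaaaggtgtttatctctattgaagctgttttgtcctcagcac
Axin2: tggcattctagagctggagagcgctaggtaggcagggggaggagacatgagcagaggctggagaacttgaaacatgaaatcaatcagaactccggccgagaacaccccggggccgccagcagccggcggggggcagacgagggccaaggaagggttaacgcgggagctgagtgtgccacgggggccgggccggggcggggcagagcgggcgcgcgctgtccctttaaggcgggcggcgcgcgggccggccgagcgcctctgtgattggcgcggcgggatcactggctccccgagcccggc
Windows were found for 9 of the 10 genes, 15 in all, and 3 windows of 3 genes held a word (the other is an internal Tcf7l2 window, with CTTTGTT). The other 3 Lef1 windows, both Tcf7 windows and the Nkd1 window held none, so of the 5 target genes 2 had a word in any window. Apc had no entry. Among all 32851 promoter windows of that length, 16.9% held at least 1 of the 4 words. That share is per window and stands beside the 3 of 15 windows, not beside the counts of genes, some of which have several windows. CTTTGTT was in 5.85% of them, CTTTGAA in 5.14%, CTTTGAT in 3.73% and CTTTGTA in 3.64%. A match describes letters in this window and is not a binding site, and a window without one says nothing of the factor.

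Total counts were 13392941 and 15972163 in the labelled Smad7-transfected knockout, 20159897 and 19455030 in the knockout, and 19260386 and 20209760 in wild type. Smad7 itself stood at 93.8 and 99.4 normalised CPM (counts scaled to a common library size) in the libraries labelled Smad7-transfected, against 75.5 and 69.6 CPM in the knockout and 97.6 and 97.7 CPM in wild type. The lncSmad7 feature had 167 and 207 counts in the labelled libraries, 140 and 105 in the knockout and 237 and 221 in wild type. The label names a transfection with Smad7, but under the main scaling Smad7 in these libraries was near its wild-type level (log2 fold −0.01, SE 0.047, adjusted p = 0.79). That value rests on the scaling: it was 0.38 with library size scaling and −0.31 with offsets for GC content and length, and both passed. The lncSmad7 feature was higher in these libraries than in the knockout (0.79, adjusted p = 9.3e-09). Every direction drawn from these libraries therefore rests on the label, which is kept in their name. The sources used here do not place the lncSmad7 feature inside or outside the deletion, so the reads it keeps check nothing. Markers of pluripotent cells summed to between 3689 and 3709 CPM in the labelled libraries, 5273 and 5278 in the knockout and 4020 and 4024 in wild type.

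The 10 genes did not move as a block. In the knockout against wild type, 6 of the 10 passed the test, 2 higher and 4 lower, by edgeR's quasi-likelihood test with Benjamini-Hochberg adjustment over all genes and a threshold of 0.05. Among all genes tested 67.7% passed in that comparison (34.5% higher and 33.3% lower). In the labelled Smad7-transfected knockout against the knockout 9 passed, 4 higher and 5 lower, where 74.6% of all genes passed (37.8% higher and 36.8% lower). In the labelled Smad7-transfected knockout against wild type 7 passed, 3 higher and 4 lower, where 81.9% of all genes passed (43.1% higher and 38.8% lower). The libraries of the groups compared did not overlap for 6 of the 10 genes in the knockout against wild type, as for 82.5% of all genes. In the labelled Smad7-transfected knockout they did not overlap for 9 against the knockout and 8 against wild type, as for 86.3% and 89.9% of all genes. With 10 genes and backgrounds of this size the counts are not read as a result about the set, and what follows is about single genes. The 3 comparisons share libraries, and their values for a gene are not independent of one another.

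**Figure D1:**
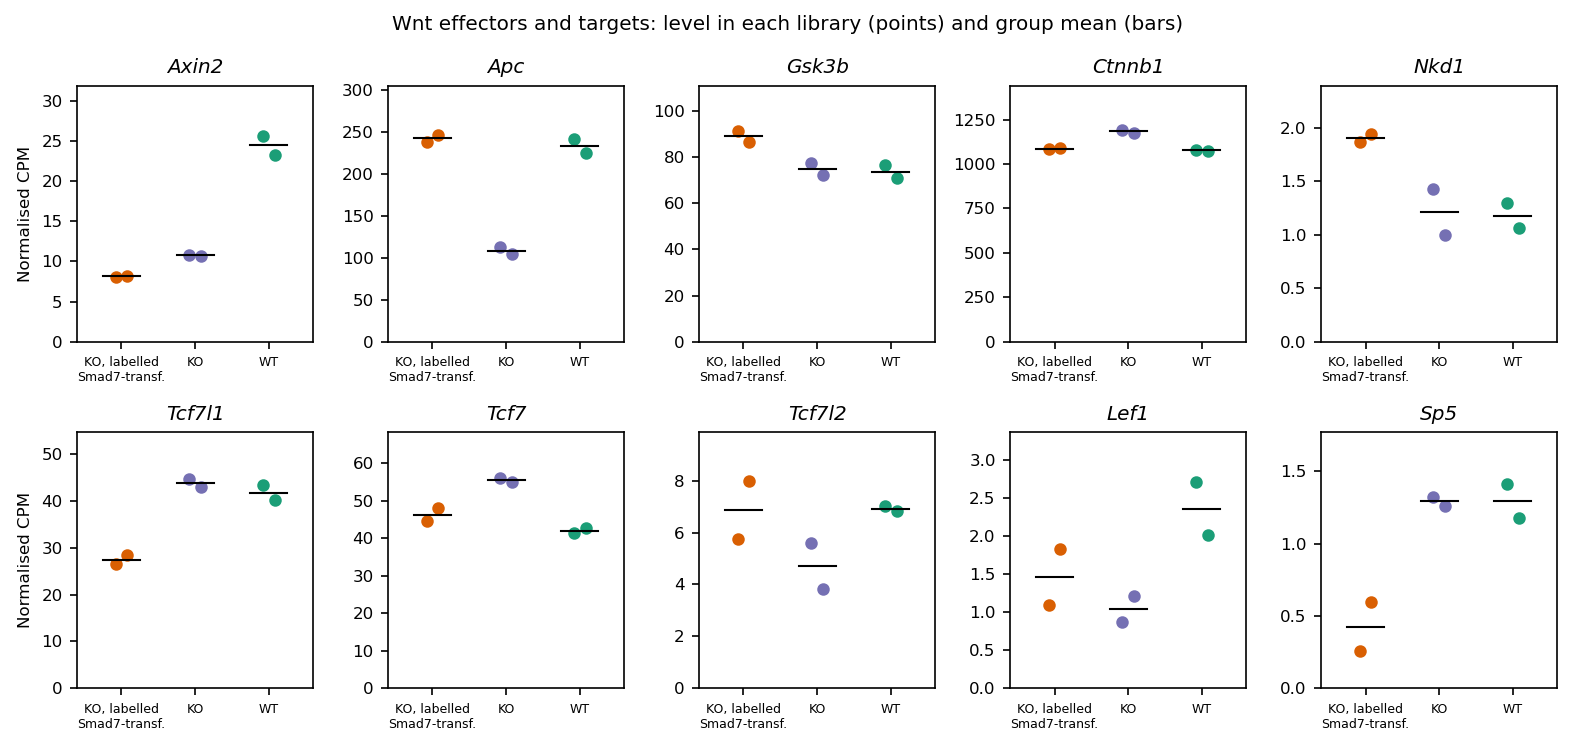
Normalised CPM of the 10 genes in each library (points) with the mean of each group (bars), for the labelled Smad7-transfected knockout, the knockout and wild type, each panel with its own axis from 0. Axin2 is lowest in both labelled libraries (8.07 and 8.22 CPM), Apc is low in the knockout alone (113 and 104 CPM), and Sp5 and Tcf7l1 are low in the labelled libraries alone.

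Axin2 encodes a scaffold of the destruction complex and is the usual readout of Wnt signalling, since beta-catenin with TCF/LEF induces it as a feedback inhibitor. It lies on chromosome 11 at 108920349 to 108950783, plus strand. Its level was 8.07 and 8.22 CPM in the labelled Smad7-transfected knockout, 10.9 and 10.7 CPM in the knockout, and 25.7 and 23.3 CPM in wild type. All 3 groups were separate, with wild type far above both knockout groups. Axin2 fell in the knockout against wild type (log2 fold −1.18, SE 0.093, adjusted p = 2.0e-24) and was also lower in the labelled libraries than in wild type (log2 fold −1.58, SE 0.10, adjusted p = 4.0e-32). The further step between the labelled libraries and the knockout was small (−0.41, SE 0.12, adjusted p = 0.0013), and under library size scaling the call was lost (−0.16, adjusted p = 0.22).

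Apc encodes the large scaffold that holds beta-catenin in the destruction complex. The gene lies on chromosome 18 at 34220924 to 34322552, plus strand. Its level was 237.9 and 247 CPM in the labelled Smad7-transfected knockout, 113 and 104 CPM in the knockout, and 242 and 225 CPM in wild type. The knockout alone was low, and the labelled libraries interleaved with wild type. Apc fell in the knockout against wild type, with a log2 fold of −1.10 (SE 0.041, adjusted p = 2.9e-54). In the labelled libraries it was higher than in the knockout, by 1.16 (SE 0.041, adjusted p = 1.3e-56). The difference between the labelled libraries and wild type did not pass (0.06, SE 0.038, adjusted p = 0.17). That last value rests on the scaling: it was 0.45 with library size scaling and −0.37 with offsets for GC content and length, and the difference from the knockout was 0.73 with those offsets. Apc has 16116 bases of exon at 44.3% GC.

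Gsk3b, the kinase that marks beta-catenin for degradation, lies on chromosome 16 at 38089001 to 38246084, plus strand. It stood at 91.2 and 86.5 CPM in the labelled Smad7-transfected knockout, 77.4 and 72.1 CPM in the knockout, and 76.3 and 70.9 CPM in wild type. The knockout and wild type interleaved, and the labelled libraries lay above both. Gsk3b was higher in the labelled libraries than in the knockout, with a log2 fold of 0.25 (SE 0.049, adjusted p = 2.9e-06), and than in wild type (0.27, SE 0.050, adjusted p = 4.0e-07). With GC and length offsets neither passed, at 0.04 against the knockout and −0.07 against wild type. The knockout against wild type gave 0.02 (adjusted p = 0.68), which turned to −0.11 with those offsets (adjusted p = 0.033).

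Nkd1, a feedback inhibitor that binds Dishevelled, lies on chromosome 8 at 88521354 to 88594884, plus strand, and was among the lowest of the 10. It had 29 and 36 counts in the labelled Smad7-transfected knockout, 28 and 19 in the knockout, and 22 and 19 in wild type. That was 1.87 and 1.95 CPM in the labelled libraries, 1.43 and 0.999 CPM in the knockout, and 1.30 and 1.06 CPM in wild type. The labelled libraries were the highest, and the other groups interleaved. The log2 fold was 0.65 against the knockout (SE 0.29, adjusted p = 0.033) and 0.70 against wild type (SE 0.30, adjusted p = 0.025), and 0.05 in the knockout against wild type (SE 0.32, adjusted p = 0.91). The calls are fragile at this depth. Against the knockout the call ended without knockout replicate 2 (adjusted p = 0.30) and without labelled replicate 1 (0.070) or 2 (0.12). Against wild type it ended without labelled replicate 2 (0.087) and without wild-type replicate 2 (0.17), and DESeq2 called neither (0.33 and 0.31).

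Ctnnb1 encodes beta-catenin, the transducer of the signal and a partner of cadherins at cell junctions. It lies on chromosome 9 at 120929216 to 120960507, plus strand. It stood at 1083 and 1089 CPM in the labelled Smad7-transfected knockout, 1193 and 1177 CPM in the knockout, and 1079.9 and 1074 CPM in wild type. The knockout was the highest, and the labelled libraries lay just above wild type. In the knockout against wild type the log2 fold was 0.14 (SE 0.034, adjusted p = 1.7e-04), but −0.06 with GC and length offsets (adjusted p = 0.032). In the labelled libraries against the knockout it was −0.13 (SE 0.034, adjusted p = 5.3e-04), but 0.12 with library size scaling (adjusted p = 5.6e-04), where the median of all genes tested was 0.29 in place of 0.04. The labelled libraries against wild type gave 0.01 (SE 0.034, adjusted p = 0.75), with 0.40 and −0.20 under the same 2 alternatives. Ctnnb1 transcript therefore has no direction that held under every scaling, and these data hold no measure of beta-catenin protein.

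**Figure D2:**
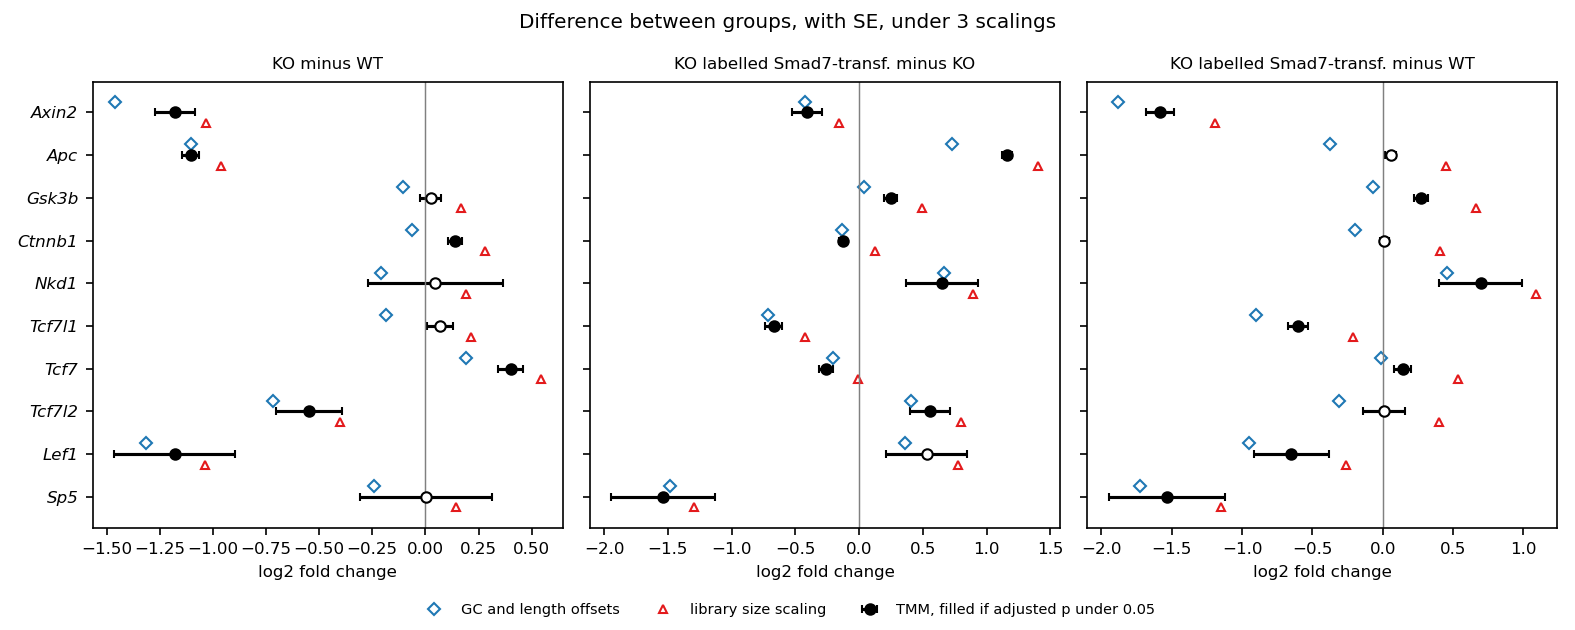
Log2 fold change of the 10 genes in the 3 comparisons, with the SE of the main test (circles, filled where adjusted p is under 0.05), and the value with GC and length offsets (diamonds) and library size scaling (triangles). Axin2 and Lef1 keep their sign in each comparison under the 3 scalings drawn, and each of the other 8 genes has points on both sides of 0 in at least 1 comparison.

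The median log2 fold over all genes tested was 0.02 in the knockout against wild type, 0.04 in the labelled libraries against the knockout and 0.09 against wild type. With library size scaling these medians were 0.17, 0.29 and 0.48, and with GC and length offsets −0.05, −0.08 and −0.10. The choice of scaling thus moves the members as well, by amounts as large as the smaller differences given here.

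The 4 TCF/LEF genes encode the DNA-binding partners of beta-catenin, and they differed from one another. Tcf7l1 encodes the family member known in mouse embryonic stem cells mainly as a repressor of Nanog, Esrrb and related genes. It lies on chromosome 6 at 72626378 to 72789254, minus strand. It stood at 26.5 and 28.4 CPM in the labelled Smad7-transfected knockout, 44.6 and 43.0 CPM in the knockout, and 43.3 and 40.2 CPM in wild type. Both labelled libraries were low, and the knockout and wild type overlapped. Tcf7l1 fell in the labelled libraries against the knockout, with a log2 fold of −0.67 (SE 0.067, adjusted p = 1.0e-17), and was lower than in wild type (−0.60, SE 0.069, adjusted p = 1.1e-14), and both calls held with library size scaling (−0.42 and −0.21) and GC and length offsets (−0.72 and −0.90). The knockout against wild type gave 0.07 (SE 0.062, adjusted p = 0.31), and passed in opposite directions with library size scaling (0.21) and with the offsets (−0.19).

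Tcf7, which encodes TCF1 and is itself a target of the signal, lies on chromosome 11 at 52252371 to 52283014, minus strand. It had 44.7 and 48.0 CPM in the labelled Smad7-transfected knockout, 56.1 and 55.1 CPM in the knockout, and 41.4 and 42.8 CPM in wild type. The knockout was the highest and the 3 groups were separate. Tcf7 rose in the knockout against wild type (log2 fold 0.40, SE 0.058, adjusted p = 4.5e-10), and still passed at 0.19 with GC and length offsets. It was lower in the labelled libraries than in the knockout (−0.26, SE 0.057, adjusted p = 2.3e-05), a call lost under library size scaling (−0.01, adjusted p = 0.85). Against wild type the labelled libraries gave 0.14 (SE 0.061, adjusted p = 0.028), a call that was lost without any 1 of labelled replicate 2 (adjusted p = 0.25), wild-type replicate 1 (0.24) or 2 (0.084) or knockout replicate 1 (0.060), and that turned to −0.01 with the offsets.

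Lef1, a TCF/LEF activator and target gene, and Tcf7l2, which encodes TCF4, were the scarce members of the family. Lef1 lies on chromosome 3 at 131110471 to 131224356 and Tcf7l2 on chromosome 19 at 55741820 to 55933654, both on the plus strand. Lef1 had 17 and 34 counts in the labelled Smad7-transfected knockout, 17 and 23 in the knockout, and 46 and 36 in wild type. That was 1.10 and 1.84 CPM in the labelled libraries, 0.867 and 1.21 CPM in the knockout, and 2.71 and 2.01 CPM in wild type. Wild type was the highest, and the labelled libraries overlapped with the knockout. Lef1 fell in the knockout against wild type (log2 fold −1.18, SE 0.28, adjusted p = 1.2e-04), and this call held in each alternative tried, DESeq2 included (adjusted p = 0.037). The labelled libraries against the knockout gave 0.53 (SE 0.32, adjusted p = 0.12), and 0.81 without labelled replicate 1 (adjusted p = 0.034). Against wild type they gave −0.65 (SE 0.27, adjusted p = 0.022), which did not pass without labelled replicate 1 (−0.35, adjusted p = 0.28), without wild-type replicate 1 (−0.44, adjusted p = 0.22) or by DESeq2 (adjusted p = 0.22).

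Tcf7l2 had 5.74 and 8.00 CPM in the labelled Smad7-transfected knockout, 5.61 and 3.84 CPM in the knockout, and 7.02 and 6.82 CPM in wild type. Both knockout libraries were low, and the labelled libraries lay on either side of wild type. Tcf7l2 was lower in the knockout than in wild type (log2 fold −0.55, SE 0.16, adjusted p = 0.0012) and higher in the labelled libraries than in the knockout, at 0.56 (SE 0.16, adjusted p = 9.1e-04). Both calls rest on knockout replicate 2, without which they were −0.29 (adjusted p = 0.15) and 0.29 (0.14). The second also ended without labelled replicate 2 (0.27, adjusted p = 0.23), and DESeq2 called neither (adjusted p = 0.070 and 0.11). The labelled libraries against wild type gave 0.01 (SE 0.15, adjusted p = 0.96), or −0.31 with GC and length offsets (adjusted p = 0.045).

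Counted per length of exon, Tcf7 and Tcf7l1 made up nearly all TCF/LEF transcript in every library. The size of each share depends on that length, which merges all annotated exons of a gene. Tcf7 took 69.3% and 68.6% of the family's CPM per kb in the labelled Smad7-transfected knockout, 63.9% and 64.5% in the knockout, and 56.5% and 59.2% in wild type. Tcf7l1 took 27.5% and 27.2% in the labelled libraries, 33.9% and 33.7% in the knockout, and 39.5% and 37.2% in wild type. The ratio of Tcf7 to Tcf7l1 was 2.52 and 2.53 in the labelled libraries, 1.88 and 1.91 in the knockout, and 1.43 and 1.59 in wild type. The groups did not overlap in this ratio, which needs no scaling between libraries but can still move with a library's GC bias. On the log2 scale it averaged 1.34 ± 0.0010 in the labelled libraries, 0.92 ± 0.016 in the knockout and 0.59 ± 0.11 in wild type (SD, n = 2 each). The ratio was not tested.

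**Figure D3:**
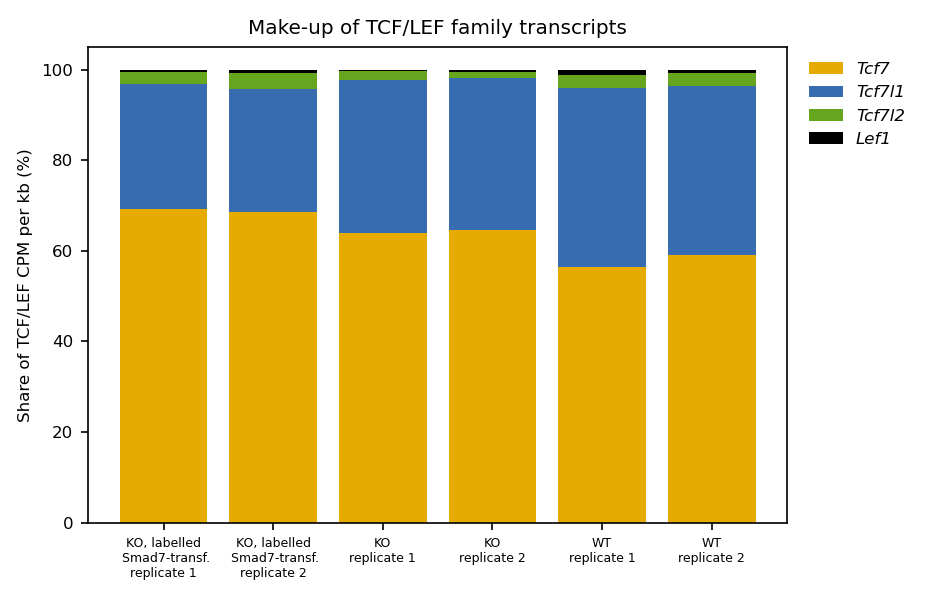
Share of the 4 TCF/LEF genes in their summed CPM per kb of exon (%), for each library of the labelled Smad7-transfected knockout, the knockout and wild type. Tcf7 holds between 56.5% and 69.3% and Tcf7l1 between 27.2% and 39.5%, and Tcf7l2 and Lef1 together form the thin top of each bar.

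Sp5, a zinc finger repressor and direct target of beta-catenin with TCF/LEF in mouse embryonic stem cells, was low in every library. It lies on chromosome 2 at 70474923 to 70477729, plus strand. It had 4 and 11 counts in the labelled Smad7-transfected knockout, 26 and 24 in the knockout, and 24 and 21 in wild type. That was 0.258 and 0.595 CPM in the labelled libraries, 1.33 and 1.26 CPM in the knockout, and 1.42 and 1.17 CPM in wild type. Both labelled libraries were below the others, and the knockout and wild type interleaved. Sp5 fell in the labelled libraries against the knockout, with a log2 fold of −1.54 (SE 0.40, adjusted p = 3.8e-04), and was lower than in wild type (−1.54, SE 0.41, adjusted p = 4.2e-04). Both calls held in each alternative tried. Without labelled replicate 2 the values were −2.30 and −2.28. The knockout against wild type gave 0.00 (SE 0.31, adjusted p = 1.00) at this depth. Its window is the one printed above with a word on each strand.

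Some reads of these genes cannot be assigned without a strand setting, which the sources used here do not give. Exons on the opposite strand overlap 14.6% of the exon length of Ctnnb1 (Ulk4), 13.7% of Lef1 (Gm43352), 4.56% of Tcf7l1 (Gm15401) and 3.80% of Axin2 (Gm11670). In bulk RNA a lower value can mean fewer cells of a type or less RNA per cell, and these cannot be told apart.

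The order of levels, as CPM per kb of exon, put Ctnnb1 far above the rest in every group, at 209 in the labelled Smad7-transfected knockout, 228 in the knockout and 207 in wild type. The order between genes depends on the length used, which merges all annotated exons of a gene, and no other length was tried. Tcf7 came next, with 17.6 CPM per kb in the labelled libraries, 21.2 in the knockout and 16.0 in wild type. Apc followed at 15.0 CPM per kb in the labelled libraries and 14.5 in wild type, but at 6.73 in the knockout it lay below Tcf7l1 (11.2) and Gsk3b (7.60). Gsk3b stood above Tcf7l1 in the labelled libraries (9.04 against 6.99) and below it in wild type (7.48 against 10.6). Axin2 averaged 1.48 CPM per kb in the labelled libraries, 1.96 in the knockout and 4.44 in wild type, and Tcf7l2, Sp5, Nkd1 and Lef1 stayed under 1 in all 3 groups. In wild type Lef1 and Nkd1 (0.269 and 0.259) overlapped between libraries, as did Tcf7l2 and Sp5 in the knockout (0.538 and 0.616) and Sp5 and Lef1 in the labelled libraries (0.203 and 0.167).

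The rest of the pathway was read from a list of 99 further genes in 10 roles, of which 82 were tested. In the knockout against wild type 34 were higher and 26 lower. In the labelled Smad7-transfected knockout against the knockout 27 were higher and 39 lower, and against wild type 36 were higher and 34 lower. These counts, and those of the roles below, stand against shares of all genes tested of 34.5% higher and 33.3% lower in the first comparison, 37.8% and 36.8% in the second and 43.1% and 38.8% in the third. In the second comparison the list's median log2 fold was −0.13, against 0.04 over all genes. With library size scaling 37 were higher and 22 lower there, as were 49.6% and 25.9% of all genes, and the list's median was 0.12 against 0.29 over all genes. With GC and length offsets 21 were higher and 43 lower, where 32% and 41.7% of all genes were. In the first comparison those offsets gave 28 and 32, and in the third 27 and 37.

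Most tested Wnt ligand genes were higher in the labelled libraries. Of 19 ligand genes 12 were tested. In the labelled libraries 9 were higher than in the knockout and 10 higher than in wild type, with 0 lower in both, and the counts were 10 and 10 with library size scaling and 8 and 8 with GC and length offsets. These are scarce transcripts: among genes with a mean under 5 CPM, 46.6% and 52.8% were higher in the same comparisons, and 13% and 18.6% lower. Some ligands passed the filter on low counts through the labelled libraries alone, so a higher call there was close to fixed in advance. Among them were Wnt4 (18 and 25 counts there, 1 and 4 in the knockout, 4 and 2 in wild type), Wnt8b and Wnt10b. The labelled libraries also had more genes with a count (26358 and 27359, against 24849 and 24777 in the knockout and 24446 and 24671 in wild type), and the part of that in the ligand counts was not tested. In the labelled libraries DESeq2 lost the calls of Wnt2b against the knockout and of Wnt2b, Wnt3 and Wnt11 against wild type. In the knockout against wild type 4 ligands were higher and 2 lower, where 27.2% and 18.4% of genes under 5 CPM were, and DESeq2 lost Wnt7b, Wnt8b and Wnt9a. Those counts were 3 and 4 without wild-type replicate 1, 3 and 3 without knockout replicate 1 or wild-type replicate 2, and 2 and 2 with GC and length offsets.

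Wnt6 was the most abundant ligand by count, with 374 and 381 counts in the labelled Smad7-transfected knockout, 159 and 146 in the knockout, and 56 and 51 in wild type. Its 3 groups were well apart, with log2 folds of 1.36 in the knockout against wild type and 1.49 in the labelled libraries against the knockout (SEs 0.16 and 0.10). Wls encodes the carrier that takes Wnt proteins to the cell surface, and had 425 and 465 counts in the labelled libraries, 122 and 117 in the knockout, and 16 and 29 in wild type. It rose by 2.25 in the knockout against wild type (SE 0.21) and by 2.08 in the labelled libraries against the knockout (SE 0.11). Porcn, the X-linked acyltransferase that lipidates Wnt proteins, had 618 and 718 counts in the labelled libraries, 792 and 873 in the knockout and 239 and 245 in wild type. It rose in the knockout against wild type (1.63, SE 0.078), and the labelled libraries gave −0.13 against the knockout (adjusted p = 0.053). Wnt5a was higher in the knockout than in wild type (1.62), Wnt10a in the labelled libraries than in the knockout (2.34), and Wnt9a in the labelled libraries than in wild type (2.47).

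**Figure D4:**
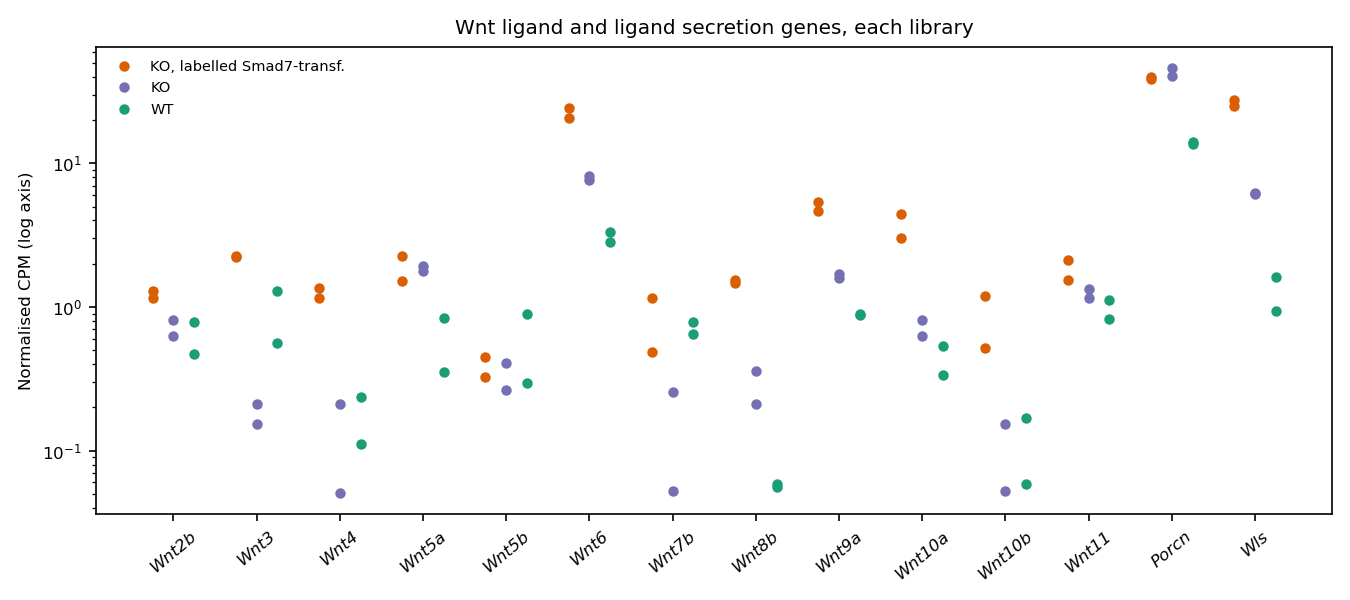
Normalised CPM on a log axis of the 12 tested Wnt ligand genes and the 2 ligand secretion genes in each library of the labelled Smad7-transfected knockout, the knockout and wild type. Wnt6 and Wls are highest in the labelled libraries and lowest in wild type, while Porcn separates both knockout groups from wild type.

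At the receptors, 16 genes were tested. In the knockout against wild type 6 were higher and 7 lower, among them Lrp5, a co-receptor, at 0.73 and Lgr4, a receptor for R-spondins that strengthens Wnt signalling, at −0.79. Library size scaling made that 7 and 5, and GC and length offsets 4 and 7. In the labelled libraries against the knockout 5 were higher and 6 lower (10 and 3 with library size scaling), with the receptor Fzd5 at −0.51 and the receptor-like kinase Ryk at −0.54. GC and length offsets went the other way: Fzd3 lost its higher call (0.09), and Fzd4 (−0.42), Lrp5 (−0.23) and Lrp6 (−0.34) were called lower. Against wild type 6 were higher and 8 lower (9 and 4 with library size scaling), with Lgr4 at −0.92 and Fzd5 at −0.90. There the offsets again lost the higher call of Fzd3 (−0.13) and called Lrp6 lower (−0.50). The ubiquitin ligases Znrf3 and Rnf43, which remove Frizzled from the surface and are targets of the signal, moved apart. Znrf3 fell by 0.77 in the knockout against wild type and by 0.97 in the labelled libraries against wild type; against the knockout it gave −0.21, a call lost with library size scaling (0.04, adjusted p = 0.66), by DESeq2 (adjusted p = 0.17) and without knockout replicate 1 (0.43) or labelled replicate 2 (0.16). Rnf43, under 3 CPM in each library, was higher in the labelled libraries than in the knockout (1.43) and than in wild type (3.04), while its call in the knockout against wild type (1.61) was lost by DESeq2 (adjusted p = 0.075), without knockout replicate 2 (0.055) and without wild-type replicate 1 (0.12).

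Among 11 secreted or surface modulators, 6 were higher and 3 lower in the knockout against wild type, 3 higher and 6 lower in the labelled libraries against the knockout, and 6 higher and 3 lower in the labelled libraries against wild type. In the labelled libraries against the knockout it was 3 and 2 with library size scaling, 2 and 3 without knockout replicate 1 and 3 and 3 without labelled replicate 2. Sfrp1, a secreted Wnt antagonist, rose by 0.76 in the knockout against wild type and was lower in the labelled libraries than in the knockout (−1.26). Notum, a Wnt-inactivating enzyme and target of the signal, rose by 0.90 in the knockout against wild type. Kremen2, a co-receptor for Dkk1, was higher in the labelled libraries than in the knockout (1.66). Dkk1, a secreted inhibitor that blocks Lrp5 and Lrp6, had 0 counts in both labelled libraries, 0 and 1 in the knockout, and 80 and 71 in wild type. Dkk1 passed the filter on low counts through wild type alone, so a lower call elsewhere was close to fixed in advance. In the labelled libraries it was at least 49.1-fold lower than in wild type, where 3 counts summed over both libraries are taken as the floor. In the knockout it was 167.5-fold lower than in wild type, with an exact 95% counting interval of 29.6 to 6657, which covers counting error only.

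The partners of Axin2, Apc and Gsk3b in the cytoplasm had 6 higher and 2 lower of 13 tested in the knockout against wild type, 3 higher and 9 lower in the labelled libraries against the knockout, and 6 and 6 against wild type. With library size scaling these were 11 and 0, 6 and 4, and 10 and 3, and with GC and length offsets 5 and 4, 2 and 10, and 3 and 7. In the second comparison the role's median log2 fold was −0.19 against 0.04 over all genes, and 0.057 against 0.29 with library size scaling. Axin1, the constitutive Axin scaffold, was lower in the labelled libraries than in the knockout (−0.82) and than in wild type (−0.94), under each scaling tried. Gsk3a, the close relative of Gsk3b, was also lower there than in the knockout (−0.73). X-linked Amer1, which tethers Apc to the membrane, was higher in the knockout than in wild type (1.12), and Dvl2, which carries the signal from Frizzled, at 0.50.

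At cell junctions 4 genes were tested, of which 1 was higher and 2 lower in the knockout against wild type, and 0 higher and 3 lower in the labelled libraries against the knockout, with 1 and 3 under library size scaling. Jup, the plakoglobin relative of beta-catenin, gave −0.48 in the knockout against wild type and −0.49 in the labelled libraries against the knockout. Ctnna1, alpha-catenin, gave −0.45 in the labelled libraries against the knockout and −0.50 against wild type. Of 12 nuclear factors 3 were higher and 6 lower in the knockout against wild type, and 3 higher and 8 lower in the labelled libraries in both comparisons. With library size scaling the 3 counts were 4 and 5, 3 and 5, and 4 and 6. The second of them was 0 and 8 with GC and length offsets and 1 and 8 by DESeq2. The corepressor Ctbp2 fell by 0.52 in the knockout against wild type and was lower in the labelled libraries than in wild type (−0.96), as was Ctbp1 (−0.92). Bcl9l, a coactivator that binds beta-catenin, rose by 1.41 in the knockout against wild type.

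Of the other direct targets, some of them counted under the roles above too, 10 were tested: 3 were higher and 5 lower in the knockout against wild type, 3 higher and 4 lower in the labelled libraries against the knockout, and 2 higher and 4 lower against wild type. Library size scaling gave 4 and 5, 3 and 2, and 4 and 4 in these comparisons, and DESeq2 gave 2 and 3, 2 and 2, and 2 and 4. Ccnd1, the cell cycle regulator cyclin D1, stood at 130.5 and 128 CPM in the labelled Smad7-transfected knockout, 259.8 and 253 CPM in the knockout, and 241 and 248 CPM in wild type. The labelled libraries alone were low, at −0.99 against the knockout and −0.92 against wild type. T, which encodes the primitive streak factor Brachyury, had 0 and 4 counts in the labelled libraries, 3 and 3 in the knockout, and 27 and 27 in wild type. Its log2 fold in the knockout against wild type was −3.26 (SE 0.49). T passed the filter on low counts through wild type alone, so a lower call elsewhere was close to fixed in advance. It was also named after its values were seen.

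The 4 listed genes that Tcf7l1 is known to repress in mouse embryonic stem cells, Esrrb, Nanog, Klf2 and Tfcp2l1, were all higher in the knockout than in wild type and all lower in the labelled libraries than in the knockout, where library size scaling left 3 calls. Of the 7 pluripotency markers listed, Nanog and Esrrb among them, 6 were higher and 1 lower in the knockout against wild type, and 0 higher and 6 lower in the labelled libraries against the knockout. Among all genes tested 34.5% were higher and 33.3% lower in the first of these comparisons, and 37.8% and 36.8% in the second. Tcf7l1 was itself lower in the labelled libraries, and a link between its level and these genes was not tested. Klf2 stood at 308 and 283 CPM in the labelled libraries, 622 and 633 CPM in the knockout and 186 and 177 CPM in wild type. The knockout was highest, at a log2 fold of 1.79 against wild type, and the labelled libraries gave −1.09 against the knockout. Nanog gave 0.47 in the knockout against wild type and −0.93 in the labelled libraries against the knockout, and Esrrb 0.52 in the knockout against wild type. Against wild type the labelled libraries had 2 of the 4 higher and 2 lower, or 3 and 0 with library size scaling and 1 and 3 with GC and length offsets.

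Markers of other cell types also differed between the groups, but the lists did not share a pattern. All 7 primitive endoderm markers were lower in the knockout than in wild type. In that comparison 34.5% of all genes tested were higher and 33.3% lower, which also stands beside the marker counts below. All 7 were lower in the labelled libraries than in wild type, as were 38.8% of all genes. Against the knockout 4 of the 7 were higher there, as were 37.8% of all genes. Their sum was between 13.9 and 14.6 CPM in the labelled Smad7-transfected knockout, 8.20 and 8.77 CPM in the knockout and 103 and 109 CPM in wild type. None of the 7 was at 0 in any library. Mesoderm and primitive streak markers summed to between 7.52 and 7.55 CPM in the labelled libraries, 4.63 and 5.15 CPM in the knockout and 5.76 and 6.49 CPM in wild type, with 2 of 4 tested lower in the knockout than in wild type. Trophectoderm markers summed to between 6.17 and 6.65 CPM in the labelled libraries, 5.84 and 7.44 CPM in the knockout and 20.6 and 22.9 CPM in wild type, and Krt8 was the 1 of 4 that was tested. Neuroectoderm markers summed to between 35.2 and 39.9 CPM in the labelled libraries, 51.7 and 52.6 CPM in the knockout and 58.3 and 61.4 CPM in wild type, with 2 higher and 1 lower of 4 in the knockout against wild type. Fibroblast and feeder markers summed to between 8.58 and 8.76 CPM in the labelled libraries, 5.52 and 6.17 CPM in the knockout and 4.66 and 5.76 CPM in wild type, with 2 of 7 tested and Col3a1 at 0 counts in the knockout and wild type. Their part in the lower Axin2, Lef1, Dkk1 and T of the knockout, or in the ligands of the labelled libraries, was not tested.

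The genes whose pattern over the 6 libraries was most like that of Axin2, Tcf7l1 and Lef1 were sought. Likeness was the Euclidean distance between centred log2 CPM values, taken after 0.5 was added to each CPM. It ran over 10232 genes with a mean of at least 5 CPM (10233 for Lef1). The added 0.5 shrinks differences most in scarce genes such as Lef1. Nearest to Axin2 were Nop58 (distance 0.112), Eif2s2 (0.142) and Riok2 (0.146). Nearest to Tcf7l1 were Setd1b (0.0520), Pin4 (0.0771) and Gapvd1 (0.0921). Lef1, whose own counts are few, had its nearest at Ggact (0.324), Stx1a (0.355) and Osbpl3 (0.370). The 6 points share libraries and depth, and the distances describe these libraries only.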

How the data were processed

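The TruSeq libraries were made from poly(A) RNA, per the labels' protocols. The authors deposited a table of raw counts of reads per gene symbol. The submitters' processing notes name STAR and featureCounts 1.6.3 with the builds mm10 and GRCm38; the sources used here do not give the annotation release or the strand setting. Of the table's columns, 6 carry a group and number that the labels share and were used. Another 2 could not be tied to a sample and were left out, and with them the lncSmad7-transfected group, which was not analysed here.

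Genes were kept by filterByExpr, scaled by TMM and tested with edgeR 4.0.16 (quasi-likelihood, robust; limma 3.58.1, R 4.3.3) in 1 fit of 3 groups with 3 residual degrees of freedom. Benjamini-Hochberg adjustment ran over the 17342 genes tested, with 0.05 as the threshold. Normalised CPM uses the TMM factors, and CPM per kb divides by the merged exon length of GENCODE M21 on GRCm38. Replicates of a group differed by more than sampling noise, with a chi-square per degree of freedom between 1.57 and 1.89.

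The members and lists were chosen with earlier results of these data known. Each member is given with every library. Of the other pathway genes, the rule takes for each role and comparison the 2 called genes with the smallest adjusted p and a mean of at least 1 CPM, and for Axin2, Lef1 and Tcf7l1 the 3 nearest genes, clone names left out. T and Tfcp2l1 were named after their values were seen. The alternatives were RLE and library size scaling, no filter, a replicate block, fits of 4 libraries, DESeq2 1.42.0 and each replicate left out. GC and length offsets (mgcv 1.9.3, values for 97.9% of genes) and glmTreat against a fold of 1.5 were chosen after seeing the data.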

Additional observations from a re-analysis of the deposited data

How the results depend on the processing

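Of 420 refits of the members' differences, 331 kept their direction and their side of the threshold, 45 lost the call and 7 gained it. Another 28 changed sign but passed neither before nor after, and 9 changed sign with a call in at least 1 of the fits. The 420 include glmTreat, which keeps the log2 folds of the main fit and tests them against a fold of 1.5. It cannot change a direction, and part of the 45 lost calls comes from that stricter question. With library size scaling Ctnnb1 turned to 0.12 in the labelled Smad7-transfected knockout against the knockout. With GC and length offsets, 3 turned in the knockout against wild type: Tcf7l1 to −0.19, Ctnnb1 to −0.064 and Gsk3b to −0.11. Another 5 turned in the labelled libraries against wild type: Tcf7 to −0.014, Tcf7l2 to −0.31, Ctnnb1 to −0.20, Apc to −0.37 and Gsk3b to −0.066. The cause was not tested. DESeq2 called 4 members, against 7, in the labelled libraries against wild type. Against a minimum fold of 1.5, glmTreat called 3 members in the knockout against wild type (Axin2, Lef1 and Apc), 2 in the labelled libraries against the knockout (Apc and Sp5) and 2 against wild type (Axin2 and Sp5). Of the other pathway genes it called 26, 23 and 39 in those comparisons, where the test against no change called 60, 66 and 70. Leaving out each replicate gave 5 to 6, 7 to 9 and 5 to 7 members called, and 55 to 62, 59 to 67 and 65 to 71 other pathway genes. The log2 ratio of Tcf7 to Tcf7l1 is taken within each library, so leaving out a replicate only returns the other library's value and checks nothing. The library values were 1.34 for either labelled library, between 0.91 and 0.94 in the knockout and between 0.52 and 0.67 in wild type.

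Replicate numbers are shared between groups in the labels. Over 10754 genes, the deviations of same-numbered libraries correlated at 0.122 for the knockout and wild type. The values were 0.0338 for the labelled libraries and wild type, and 0.073 for the labelled libraries and the knockout. With 2 libraries a group, these values cannot decide whether same-numbered libraries were paired or shared a batch. With the replicate block 6, 9 and 7 members and 62, 66 and 70 other pathway genes were called, and no member's call changed. Depth limits Lef1, Sp5 and Nkd1, with 4 to 46 counts a library, and 2 libraries a group limit every test.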
